A study of Homo sapiens with 4 samples.

Results

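The 32 genes described here encode the cleavage, polyadenylation and termination factors that make the 3′ ends of RNA polymerase II transcripts. They were chosen by name for their known roles, with earlier results of these data known. Each was found by its symbol once the Ensembl identifiers of the count tables had been mapped. All 32 passed the filter on low counts, out of 18139 genes tested and 62700 identifiers listed. The libraries came from HEK293T, a human embryonic kidney line that carries the SV40 large T antigen, after transient transfection with an EYFP-tagged, α-amanitin-resistant RPB1 (POLR2A), the largest subunit of RNA polymerase II. In T4A cells the threonine at the fourth position of the repeats of its C-terminal domain (CTD) was replaced by alanine, and in WT cells the CTD was wild type. Both groups received 2.5 µg/ml α-amanitin, which blocks the endogenous polymerase, from 1 day after transfection, and RNA was taken after 48 hours of the drug. Poly(A) RNA was sequenced from 2 libraries per group. Endogenous and transfected RPB1 transcripts could both be present, and the populations were transfected pools rather than clones.

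In the 3′ end reaction, the cleavage and polyadenylation specificity factor (CPSF) reads the AAUAAA signal and cuts the RNA, the cleavage stimulation factor (CSTF) binds the GU-rich stretch downstream, and cleavage factor I (CFI) binds UGUA elements upstream. Cleavage factor II (CFII) joins the reaction through PCF11, which contacts the phosphorylated CTD, poly(A) polymerase adds the tail, and XRN2 degrades the RNA still attached to the polymerase. Replication-dependent histone transcripts end instead in a stem-loop without a tail, through SLBP and the U7 snRNP, using the same endonuclease.

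Depth per library ranged from 19257217 counts (T4A) to 33063535 counts (WT), and the rarest member count in any library was 24. Levels are given as CPM, counts per 1000000 counts of a library, scaled by edgeR's TMM factors. POLR2A itself, counted over construct and endogenous transcripts together and so no check of the labels, had 5378 and 5477 CPM in T4A cells, against 3772 and 2763 CPM in WT cells. Its log2 fold change was 0.73 ± 0.08 (SE) and ran from 0.52 without WT replicate 2 to 0.98 without WT replicate 1. Of 8 genes known from this line, 7 exceeded 1 CPM in every library, LHX1 being the exception. Of 11 markers of other cell types, 6 stayed under 1 CPM in every library, HBB and INS had no counts, and the summed level was 36.8 and 41.1 CPM in T4A cells, against 40.0 and 42.3 CPM in WT cells. Their part in the results was not tested.

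More of the factors fell than rose in T4A cells. By edgeR's quasi-likelihood test with Benjamini-Hochberg adjustment over all genes tested, 10 of 32 (31.2%) fell at an adjusted p under 0.05 (WDR33, CPSF2, CSTF2, CPSF6, PCF11, RBBP6, PAPOLA, LSM11, NPAT and XRN2), against 13.0% of all genes tested. In the other direction 5 of 32 (15.6%) rose (SYMPK, PPP1CA, SLBP, LSM10 and ZNF473), against 10.7% of all genes tested. The median log2 fold change was −0.25 over the members and −0.01 over all genes tested, and among protein-coding genes tested 12.6% rose, 16.4% fell and the median was −0.03. The 2 T4A libraries did not overlap the 2 WT libraries for 29 of 32 members (90.6%), as for 59.0% of all genes tested. The shifts were small: log2 fold changes spanned −0.63 to 1.48, and 4 members that passed the test changed by over 1.5-fold, namely CSTF2, LSM11, NPAT and ZNF473.

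With upper-quartile scaling 7 members rose and 8 fell (2690 and 1718 of all genes), and with library totals 4 rose and 12 fell (1352 and 2987 of all genes, against 1935 and 2351 with TMM). Without WT replicate 2, 2 members rose in place of 5 (1377 of all genes in place of 1935) and the members' median was −0.13; without T4A replicate 1 it was −0.15. Of the 15 called members, 7 passed the test whichever 1 library was left out (CPSF2, CSTF2, CPSF6, RBBP6, PPP1CA, PAPOLA and XRN2), and 4 did so under every one of 13 alternative settings (CSTF2, PPP1CA, PAPOLA and XRN2). The labels do not say that the libraries of a group came from separate cultures, though the study calls them biological replicates. The p-values cover only the variation seen among the 4 libraries, some of which may be technical. In these bulk RNAs, fewer cells expressing a gene and less RNA per cell cannot be told apart.

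**Figure D1:**
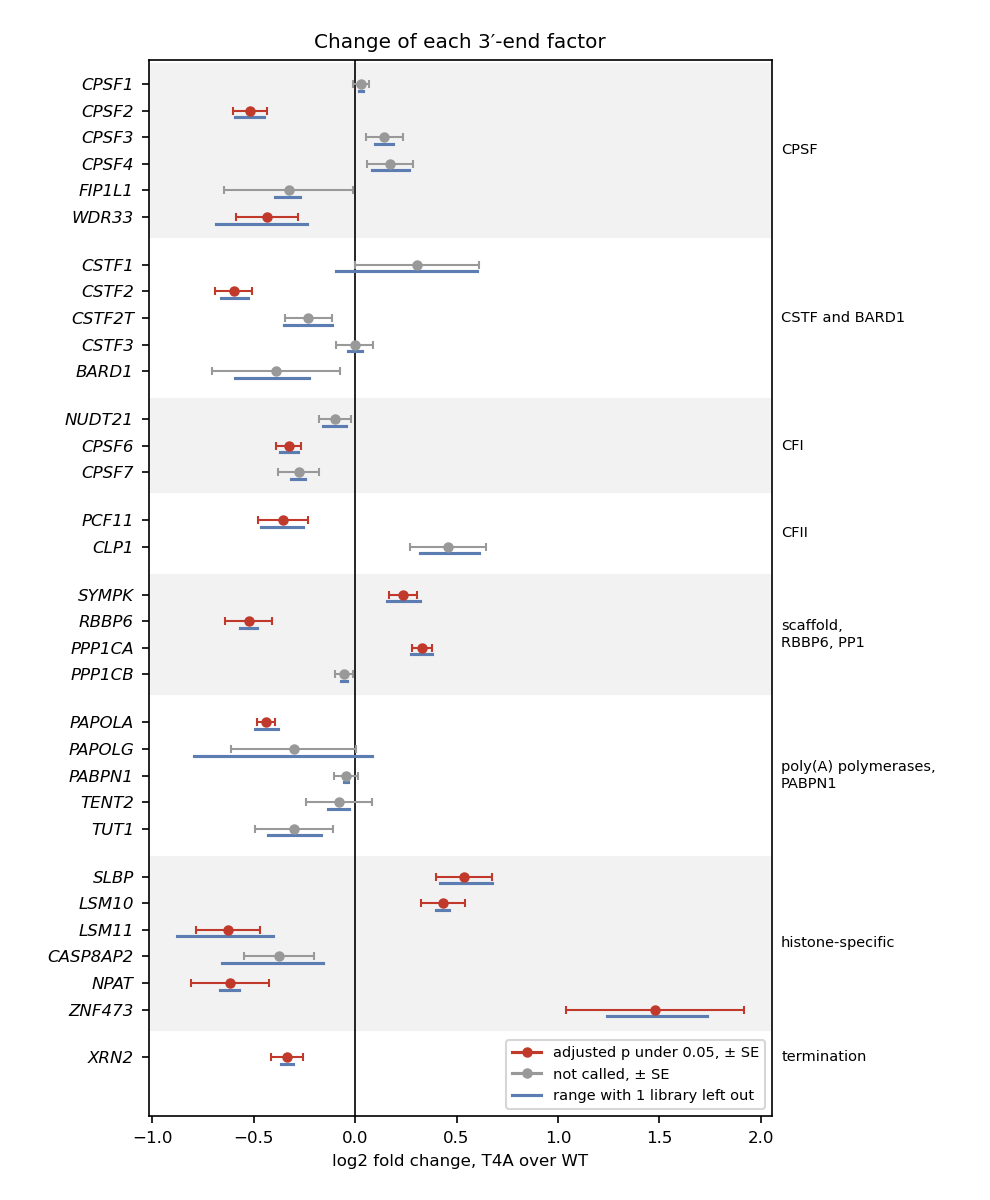
log2 fold change of T4A over WT for the 32 members, grouped by role, with bars of 1 SE and, below each, the range when 1 library was left out. Red marks members with an adjusted p under 0.05 in edgeR's quasi-likelihood test. The 10 members that fell and the 5 that rose lie between −0.63 (LSM11) and 1.48 (ZNF473).

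Among the 6 CPSF genes, 2 fell (33.3%, against 13.0% of all genes tested) and the other 4 did not pass the test. No complex was tested as a set. CPSF2, a partner of the endonuclease within its core, had 38.2 and 42.3 CPM in T4A cells, against 55.4 and 60.0 CPM in WT cells. That is a log2 fold change of −0.52 ± 0.08 (adjusted p = 0.000112, edgeR), which was −0.24 and no longer passed with the length trend of all genes removed. WDR33, which contacts the AAUAAA signal, had 14.2 and 10.4 CPM in T4A cells, against 18.2 and 15.1 CPM in WT cells (−0.44 ± 0.15, adjusted p = 0.0457, edgeR). Both groups lay apart for WDR33, but its call was lost without T4A replicate 2 (−0.24) and without WT replicate 1 (−0.29). The WDR33 call was also lost with upper-quartile scaling, with DESeq2 or its size factors, and with the length trend removed. In addition, 39.5% of the exon bases of its main transcript are shared with SFT2D3, which had no counts in any library. Reads there may have been assigned to neither gene. Of the rest, CPSF3, the endonuclease, had a log2 fold change of 0.14 ± 0.09, CPSF4 0.17 ± 0.11, FIP1L1 −0.33 ± 0.32 and CPSF1 0.03 ± 0.04. CPSF1, the largest subunit, was the most abundant member per kilobase of exon, with 65.9 CPM per kb in T4A cells and 64.6 CPM per kb in WT cells. FIP1L1, which bridges CPSF and the polymerase, had the lowest level per kilobase in T4A cells, 0.175 CPM per kb against 0.22 CPM per kb in WT cells, but 75.9% of the exon bases of its main transcript also belong to other annotated genes, and reads there may not have been assigned to it.

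In the CSTF group, 1 of 5 members fell (20%, against 13.0% of all genes tested). CSTF2, the subunit that binds the downstream element, had 28.0 and 27.4 CPM in T4A cells, against 43.6 and 40.2 CPM in WT cells (chrX:100820391-100841520, GRCh38). Its log2 fold change was −0.60 ± 0.09 (adjusted p = 5.51e-05, edgeR), and leaving out any 1 library gave −0.66 to −0.53. CSTF2T, its intronless paralog on an autosome, had 16.5 and 19.4 CPM in T4A cells, against 20.9 and 21.1 CPM in WT cells (−0.23 ± 0.12, adjusted p = 0.176, edgeR), and passed the test only without T4A replicate 2 (−0.35). The groups did not overlap for either gene. CSTF1 and CSTF3, the other CSTF subunits, did overlap between the groups, with log2 fold changes of 0.31 ± 0.31 and 0.00 ± 0.09. BARD1, a partner of BRCA1 that also binds CSTF, had 2.60 and 2.02 CPM in T4A cells, against 3.04 and 3.05 CPM in WT cells, and did not pass the test (−0.39 ± 0.32).

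All 3 CFI genes had negative log2 fold changes, as had 9164 of all 18139 genes tested. Of the 3, 1 fell (33.3%, against 13.0% of all genes tested). CPSF6, the larger partner that carries the arginine- and serine-rich domain, had 86.1 and 83.9 CPM in T4A cells, against 109.5 and 104 CPM in WT cells (−0.33 ± 0.06, adjusted p = 0.000527, edgeR), and did not pass with the length trend removed (−0.16). CPSF7, its paralog, had 22.2 and 21.2 CPM in T4A cells, against 26.4 and 26.2 CPM in WT cells, and missed the threshold (−0.28 ± 0.10, adjusted p = 0.0522, edgeR). It passed with library totals (−0.36), a filter at a mean of 1 CPM (−0.27) or the replicate number as a block. NUDT21, the subunit that binds UGUA, stood at −0.10 ± 0.08 and did not pass the test. In its main transcript 62.0% of the exon bases are shared with a gene that had no counts, and reads there may have been assigned to neither.

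The 2 CFII genes had opposite signs. PCF11 had 13.8 and 15.9 CPM in T4A cells, against 18.8 and 19.2 CPM in WT cells (−0.36 ± 0.12, adjusted p = 0.0401, edgeR). It lost its call without T4A replicate 1 (−0.26), without WT replicate 1 (−0.36) and without WT replicate 2 (−0.35). The call was also lost with upper-quartile scaling, with DESeq2 or its size factors, and with the length trend removed. CLP1, an RNA kinase that pairs with PCF11, had 8.77 and 10.2 CPM in T4A cells, against 6.17 and 7.61 CPM in WT cells (0.46 ± 0.19, adjusted p = 0.0852, edgeR), and passed only without T4A replicate 1 (0.56) or with upper-quartile scaling.

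**Figure D2:**
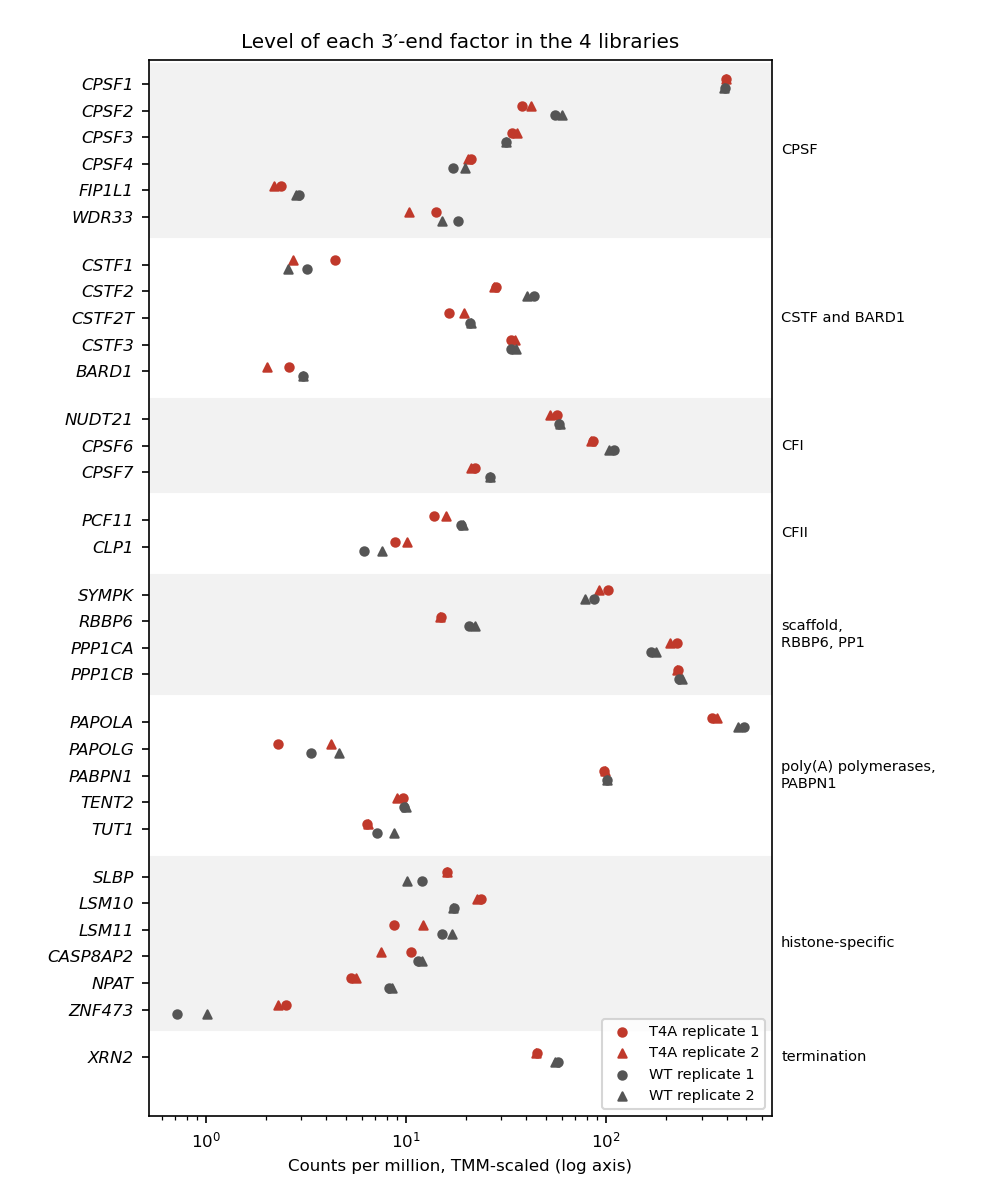
Level of each member in every library as CPM on a log axis, T4A and WT libraries in separate colours, ordered by role. PAPOLA, CPSF1 and the PP1 genes lie at the top of the range. ZNF473 was lowest in WT cells but not in T4A cells, with 2.51 and 2.29 CPM in T4A cells against 0.716 and 1.02 CPM in WT cells.

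Of the 4 scaffold, RBBP6 and phosphatase genes, 2 rose (50%) and 1 fell (25%), against 10.7% and 13.0% of all genes tested. SYMPK, the scaffold shared by CPSF and the histone cleavage complex, had 103 and 92.3 CPM in T4A cells, against 87.0 and 78.4 CPM in WT cells (0.24 ± 0.07, adjusted p = 0.0188, edgeR). This call was lost without T4A replicate 1 (0.16), without WT replicate 2 (0.16) and with library totals. RBBP6, which activates cleavage, had 14.9 and 14.8 CPM in T4A cells, against 20.8 and 22.1 CPM in WT cells (−0.53 ± 0.12, adjusted p = 0.0021, edgeR), and did not pass with the length trend removed (−0.30). PPP1CA, a catalytic subunit of protein phosphatase 1 (PP1), had 225 and 209 CPM in T4A cells, against 169 and 177 CPM in WT cells (chr11:67398183-67401858, GRCh38). It rose by 0.33 ± 0.05 on the log2 scale (adjusted p = 6.60e-05, edgeR), with 0.27 to 0.38 when any 1 library was left out. PPP1CB, the β catalytic subunit, had 229 and 226 CPM in T4A cells, against 233 and 239.7 CPM in WT cells, and did not pass the test (−0.06 ± 0.04).

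Of the 5 genes of tail-adding polymerases and their binding protein, 1 fell (20%, against 13.0% of all genes tested). The other 4 had negative log2 fold changes that did not pass. Over all genes tested, 9164 of 18139 log2 fold changes were negative. PABPN1 and TENT2 turned positive with upper-quartile scaling, TENT2 with the length trend removed and PAPOLG without T4A replicate 1. PAPOLA, the canonical nuclear poly(A) polymerase, had 337 and 358 CPM in T4A cells, against 488 and 454 CPM in WT cells (chr14:96502376-96567116, GRCh38). Its log2 fold change of −0.44 ± 0.04 had the smallest adjusted p among the members (4.21e-07, edgeR), and the leave-one-out range was −0.50 to −0.38. With the length trend removed it was −0.16 and still passed. PAPOLG, its paralog, had 2.29 and 4.20 CPM in T4A cells, against 3.37 and 4.61 CPM in WT cells, and the groups overlapped (−0.30 ± 0.31, or 0.08 without T4A replicate 1). PABPN1, which controls the length of the new tail, was nearly level (−0.05 ± 0.06), though 79.9% of the exon bases of its main transcript are shared with the read-through gene BCL2L2-PABPN1. TENT2, which extends tails in the cytoplasm, and TUT1, which adds uridines to U6 snRNA, stood at −0.08 ± 0.16 and −0.30 ± 0.19 and did not pass. In TUT1, 55.9% of the exon bases of the main transcript are shared with a gene on the same strand. That gene had 48 and 44 counts in T4A cells, against 84 and 66 counts in WT cells.

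Of the 6 histone-specific genes, 3 rose (50%) and 2 fell (33.3%), against 10.7% and 13.0% of all genes tested. SLBP, which binds the histone stem-loop, had 16.0 and 16.1 CPM in T4A cells, against 12.0 and 10.1 CPM in WT cells (0.54 ± 0.14, adjusted p = 0.00762, edgeR). LSM10, a U7-specific ring protein, had 23.7 and 22.7 CPM in T4A cells, against 17.3 and 17.1 CPM in WT cells (0.43 ± 0.11, adjusted p = 0.00603, edgeR). Both calls were lost without WT replicate 2, where the estimates were 0.42 and 0.42. ZNF473, a zinc finger protein that works with the U7 snRNP, had 2.51 and 2.29 CPM in T4A cells, against 0.716 and 1.02 CPM in WT cells. This was the highest fold change of the members, 1.48 ± 0.44 (adjusted p = 0.0178, edgeR), on 57 and 43 counts in T4A cells and 24 and 26 counts in WT cells, and it was lost without WT replicate 1 (1.24).

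LSM11, the other U7-specific ring protein, had 8.72 and 12.1 CPM in T4A cells, against 15.1 and 17.0 CPM in WT cells (−0.63 ± 0.16, adjusted p = 0.00582, edgeR), and its call was lost without T4A replicate 1 (−0.41) and without WT replicate 2 (−0.55). NPAT, which drives histone gene transcription, had 5.29 and 5.64 CPM in T4A cells, against 8.26 and 8.51 CPM in WT cells (−0.62 ± 0.19, adjusted p = 0.0238, edgeR). It was lost without WT replicate 1 (−0.63) and without WT replicate 2 (−0.60), with the DESeq2 test and with the length trend removed. CASP8AP2, a large protein of histone locus bodies, had 10.6 and 7.50 CPM in T4A cells, against 11.5 and 12.1 CPM in WT cells, did not pass (−0.38 ± 0.17) and did so without T4A replicate 1 (−0.66).

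XRN2, the exonuclease of termination, had 45.2 and 44.4 CPM in T4A cells, against 57.5 and 55.8 CPM in WT cells (chr20:21303331-21389825, GRCh38). Its log2 fold change was −0.34 ± 0.08 (adjusted p = 0.00326, edgeR), with −0.36 to −0.31 when any 1 library was left out.

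Ratios of partner genes within a library do not depend on the scaling between libraries, but keep the length trend where partners differ in length. At their lengths, the trend over all genes was 0.20 for LSM10 and −0.11 for LSM11. It was 0.03 for PPP1CA and −0.15 for PPP1CB, and 0.13 for CSTF2 and 0.03 for CSTF2T. LSM10 over LSM11 was 2.72 and 1.87 in T4A cells, against 1.14 and 1.01 in WT cells, a mean difference of 1.07 on the log2 scale. PPP1CA over PPP1CB was 0.984 and 0.927 in T4A cells, against 0.725 and 0.739 in WT cells (0.38). CSTF2 over CSTF2T was 1.70 and 1.41 in T4A cells, against 2.09 and 1.90 in WT cells (−0.36). The groups lay apart in these 3 pairs, and each gave p = 0.33 in an exact two-sided permutation test, the smallest that 2 against 2 libraries allow (adjusted over the 5 pairs, none can pass). CPSF6 over CPSF7 (−0.05, p = 0.667, exact permutation test) and PAPOLA over PAPOLG (−0.10, p = 1.0, exact permutation test) overlapped between the groups.

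**Figure D3:**
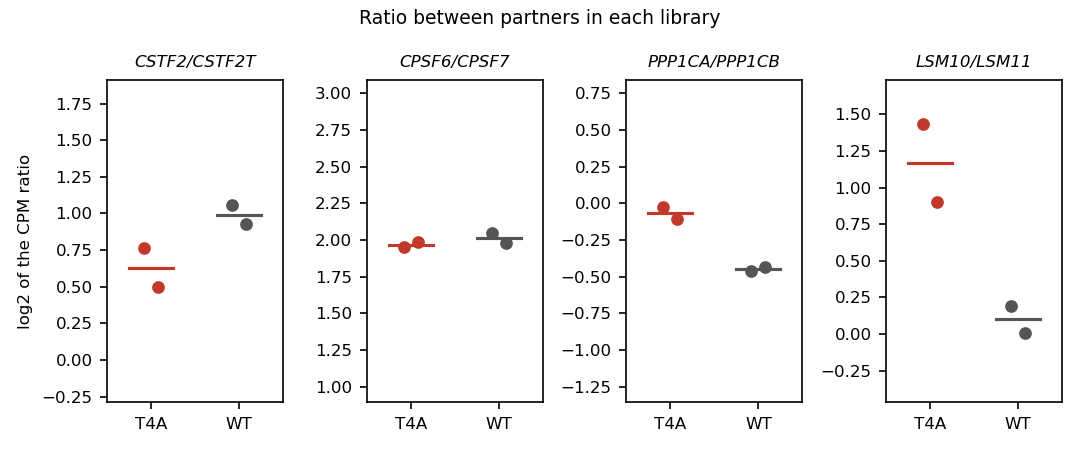
log2 ratio of the levels of partner genes in each library for 4 pairs, T4A to the left of WT, with every panel spanning the same range. The LSM10 to LSM11 ratio is higher in both T4A libraries and the CSTF2 to CSTF2T ratio lower, while that of CPSF6 to CPSF7 overlaps.

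CPSF1 and PPP1CA had the highest levels per kilobase in both groups, with PPP1CA at 53.3 CPM per kb in T4A cells and 42.4 CPM per kb in WT cells. PPP1CB (30.7 CPM per kb in T4A cells, 31.9 CPM per kb in WT cells) and PABPN1 (26.6 CPM per kb in T4A cells, 27.4 CPM per kb in WT cells) stood above PAPOLA (25.5 CPM per kb) in T4A cells and below it (34.6 CPM per kb) in WT cells. These levels divide by all annotated exon bases of a gene, 13.6 kb for PAPOLA and 3.69 kb for PABPN1, not by an expressed transcript. The order of genes depends on those lengths. PAPOLA and PABPN1 differed by less than the range of the PAPOLA libraries in T4A cells (24.7 and 26.3 CPM per kb), and lay apart in WT cells. The 32 members together took 0.185% and 0.187% of all counts in T4A cells, against 0.211% and 0.213% in WT cells. Scaled by TMM, their sums were 1916 and 1910 CPM in T4A cells, against 2081 and 2055 CPM in WT cells. Of these sums, PAPOLA alone made up 337 and 358 CPM in T4A cells, against 488 and 454 CPM in WT cells.

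Longer genes had lower log2 fold changes, in this list as over the whole table. Spearman's rho between log2 fold change and exonic length was −0.52 over the 32 members and −0.35 over 18047 genes tested, with gene span −0.42 and −0.31, and with mean level 0.05 and −0.01. These are correlations across genes of the same 4 libraries, not independent replicates. The members were long, with a median of 6308 exonic bases against 4481 over all genes tested. With the length trend of all genes removed, the members' median was −0.11, 4 members fell (CSTF2, XRN2, PAPOLA and LSM11) and 4 rose (CPSF1, SYMPK, PPP1CA and ZNF473), as 1441 of all genes tested fell and 1847 rose. Beside CPSF2, CPSF6 and RBBP6, calls were lost for WDR33 (−0.15), PCF11 (−0.14), NPAT (−0.47), SLBP (0.35) and LSM10 (0.23). CSTF2 then stood at −0.73 and XRN2 at −0.42, both being shorter than the other 8 members that fell.

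**Figure D4:**
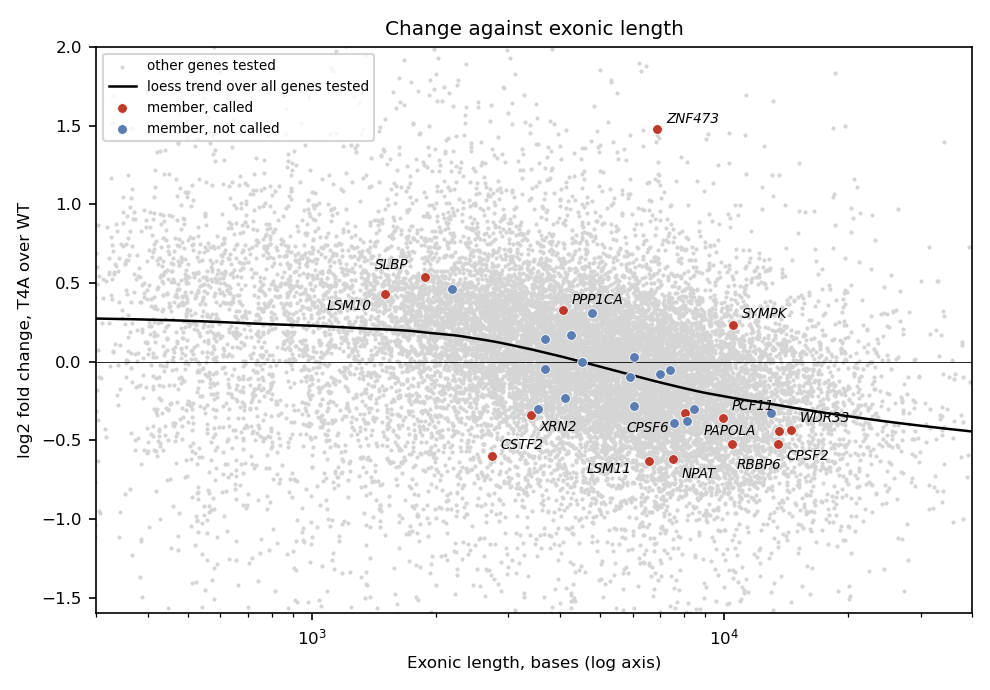
log2 fold change of T4A over WT against exonic length on a log axis for all genes tested in grey, with the loess trend as a line and the members as larger points (genes beyond the axis limits are not drawn). WDR33 and PCF11 lie within 0.15 of the trend, while CSTF2 and XRN2 lie 0.73 and 0.42 below it.

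Other genes of 3′ end formation were listed by known role, also with earlier results of these data known. Of 14 tested genes of termination and of proteins linked to the CTD, 1 rose (7.1%) and 3 fell (21.4%). Over all genes tested, 10.7% rose and 13.0% fell. SSU72, the CTD phosphatase associated with cleavage factors, had 92.8 and 89.3 CPM in T4A cells, against 74.7 and 73.7 CPM in WT cells (0.29 ± 0.06, adjusted p = 0.00204, edgeR). RPRD1A, a CTD-binding protein, had 277 and 266 CPM in T4A cells, against 374 and 358 CPM in WT cells (−0.43 ± 0.04, adjusted p = 3.75e-07, edgeR). TTF2, which releases polymerase from DNA, had 50.2 and 49.4 CPM in T4A cells, against 81.6 and 76.6 CPM in WT cells (−0.67 ± 0.07, adjusted p = 1.17e-06, edgeR). The third PP1 catalytic gene, PPP1CC, named after its values were seen, stood at −0.15 ± 0.05 and lost its call without T4A replicate 1 (−0.09) or without WT replicate 1 (−0.08), with upper-quartile scaling (−0.06), with DESeq2 or its size factors (−0.13 in each) and with the length trend removed (−0.02). DXO and PPP1R10 were listed with at most 1 count per library and were not tested. The treatment of multi-mapping reads is unknown, so these counts do not show that either gene was silent.

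Among 10 genes of histone pre-mRNA processing and cap binding, 4 rose (40%) and 1 fell (10%), against 10.7% and 13.0% of all genes tested. Those that rose encode Sm ring proteins, which the U7 snRNP shares with spliceosomal snRNPs: SNRPE had 144 and 142 CPM in T4A cells, against 99.6 and 103 CPM in WT cells (0.50 ± 0.06, adjusted p = 1.26e-06, edgeR), SNRPB 0.46 ± 0.05 (adjusted p = 1.33e-06, edgeR) and SNRPF 0.43 ± 0.07 (adjusted p = 0.000154, edgeR). SNRPG, the last of them, is named after its values were seen and lost its call without T4A replicate 1 (0.17) or WT replicate 1 (0.22). Its call was also lost with library totals and with the length trend removed. SNRPD3, a shared Sm gene also named after its values were seen, did not pass (0.11 ± 0.06, adjusted p = 0.185, edgeR). The gene that fell was NCBP1, the larger cap-binding subunit, named in the same way, with 66.5 and 68.4 CPM in T4A cells, against 83.1 and 79.3 CPM in WT cells (−0.27 ± 0.07, adjusted p = 0.00631, edgeR). Its call was lost without WT replicate 1 (−0.23) and with upper-quartile scaling (−0.185). Several Sm genes have annotated pseudogenes that could share their reads (10 for SNRPE, 4 for SNRPF and 20 for SNRPG). Of 11 genes of nuclear poly(A) length control and decay, 2 fell (18.2%, against 13.0% of all genes tested) and the other 9 did not pass. ZFC3H1, a subunit of a nuclear exosome adaptor, had 15.7 and 14.6 CPM in T4A cells, against 29.2 and 29.1 CPM in WT cells (−0.95 ± 0.11, adjusted p = 1.72e-06, edgeR). PABPC1, the main cytoplasmic poly(A)-binding protein, had a log2 fold change of −0.10 ± 0.03 (adjusted p = 0.0132, edgeR). It lost its call without T4A replicate 1 (−0.09) or WT replicate 1 (−0.07) and with upper-quartile scaling. Once the length trend was removed, it turned to 0.11 and passed the test in that opposite direction. PABPC1 has 13 annotated pseudogenes that could share its reads.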

How the data were processed

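Poly(A) RNA-seq covered 2 T4A and 2 WT libraries. The authors deposited whole-number counts per gene identifier, made, per the study's methods and the submitters' notes, with Trimmomatic 0.38, HISAT2 2.2.1 and featureCounts 2.0.1 on hg38. The methods name GENCODE release 38, whereas most identifiers match release 44 with their version, and the treatment of multi-mapping reads is unknown here. Of 62700 identifiers, 60877 had a symbol, and 59852 matched with their version. Counting was unstranded, so reads of overlapping genes cannot be told apart. Of 32 members, 17 overlap another annotated gene, 5 of them over more than 25% of the exon bases of the main transcript.

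Counts were analysed in R 4.3.3 with edgeR 4.0.16 (TMM scaling, filterByExpr, group as the only term, quasi-likelihood test, Benjamini-Hochberg over 18139 genes, threshold 0.05). Standard errors are the absolute log2 fold change over the square root of F. The counts of the 2 libraries of a group differed beyond sampling noise (chi-square per degree of freedom 4.56 in T4A and 5.66 in WT). The fit was tested on simulated data before use. Exonic length came from the union of exons in the GENCODE release 44 lift to GRCh37, used for lengths, symbols and overlaps only, and positions came from RefSeq on GRCh38. The length trend was a loess curve (span 0.5) used as an offset.

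Every member is named or counted; per-library levels are given for members called at 0.05, for partner pairs and for the leading member of each complex, and at most 3 called genes with the smallest p from each further list. The members and lists were chosen with earlier results of these data known. Alternatives were DESeq2 1.42.0 size factors and test, upper-quartile scaling, library totals, limma 3.58.1 voom, other low-count filters, the replicate block, removal of the length trend and leaving out each library.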

Additional observations from a re-analysis of the deposited data

How the results depend on the processing

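The members' median log2 fold change was −0.17 with upper-quartile scaling, −0.33 with library totals and −0.11 with the length trend removed, and −0.25 to −0.13 when any 1 library was left out. With the length trend removed, 4 members fell, 1441 of all genes fell, and PABPC1 turned to 0.11 and passed the test as higher. Leaving out any 1 library gave 2 to 5 members that rose and 7 to 10 that fell, and 1377 to 1975 genes that rose and 1583 to 2545 that fell over the whole table. limma-voom and the fit without a low-count filter gave the same call for 32 of 32 members and DESeq2 size factors for 30. The DESeq2 test called 4 members higher and 7 lower (1705 and 1789 of all genes), and gave no adjusted p for ZNF473 and FIP1L1. With the replicate number as a block, 5 members rose and 11 fell, CPSF7 being the one added, and 2012 and 2432 of all genes did so. The deviations of same-numbered libraries from their group means had a correlation of −0.0038 over the genes tested. Noise in low counts can lower such a value, so whether same-numbered libraries were prepared together stays unknown. Precision is limited by 2 libraries per group and, for ZNF473 and FIP1L1, by counts of 24 to 98 per library.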
